A study of Mus musculus with 2 samples.

Results

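The regions described here are the distal stretches of open chromatin in embryonic mouse liver that had a peak in replicate 2 of a DNase-seq experiment and none in replicate 1. Peaks of both libraries were merged where they overlapped by at least 1 bp, and regions more than 1 kb from every transcript start of a protein-coding gene were called distal. Members were selected on peak presence: of 99252 merged regions 66255 were distal, and 17283 of these (26.1%) held peaks of replicate 2 alone. With the authors' shorter peak list of both libraries 6920 members were left, and with the shorter list of replicate 2 against the longer list of replicate 1 there were 5151. The other distal regions were 23125 with peaks of replicate 1 alone and 25847 shared by both. Among promoter regions the share of replicate 2 alone was 7970 of 32997 (24.2%).

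The enzyme DNase I cuts chromatin where nucleosomes do not cover the DNA, and a peak marks a stretch that was cut often. The study has 1 group of 2 biological replicates with 1 library each, from the liver of embryos aged 13.5 days, with the same donor label and with sex not collected. Both come from strain C57BL/6N,129, labelled WT, and both carry several copies of the A85 YAC, a yeast artificial chromosome with an insert not given in the labels. Where bases of that insert match the mouse genome, their reads would add to the values there. A difference between them is a difference between 2 libraries and not between conditions, so no test was made and every value below is a description.

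Distal open regions include enhancers, insulators and other control elements that act on genes at a distance. Transcription factors bound inside them shield a few bases from DNase I, which leaves a footprint in the pattern of cuts. The liver at this age is the main site of red cell production in the embryo, where GATA1, TAL1 and KLF1 act on erythroid enhancers, and it also holds hepatoblasts, endothelium, macrophages and megakaryocytes.

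The sequences of 8 members were read from assembly GRCm38.p6 (mm10) and cut to the middle 200 bases where a region was wider. They were picked by high value and are not typical, with values from 0.471 to 5.12 against a median of 0.350 over all members. The FOXA member lay 2 bp from a replicate 1 peak. The first is the member with the highest value, and its capitals mark bases inside footprints of replicate 2. The next 6 are the highest members in which a footprint of replicate 2 overlapped a motif of GATA, AP-1, FOXA, CEBP, TEAD or CTCF factors, and their capitals mark that motif. The last is the highest member with a footprint in a run of 41 neighbouring members beside Sap30 and Hmgb2, again with footprints in capitals. Other matches to these motifs are left in lower case.
Highest member, beside Malat1, chr19:5803151-5803350, plus strand: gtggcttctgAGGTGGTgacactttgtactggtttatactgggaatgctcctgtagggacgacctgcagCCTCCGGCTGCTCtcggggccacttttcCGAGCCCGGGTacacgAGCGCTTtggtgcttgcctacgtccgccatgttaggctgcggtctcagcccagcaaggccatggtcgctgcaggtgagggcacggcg
GATA member, in an intron of Sfi1, chr11:3137381-3137580, plus strand: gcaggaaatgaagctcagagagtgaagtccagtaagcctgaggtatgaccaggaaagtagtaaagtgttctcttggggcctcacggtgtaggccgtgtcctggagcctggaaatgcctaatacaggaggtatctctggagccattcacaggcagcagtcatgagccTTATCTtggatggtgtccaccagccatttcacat
AP-1 member, in an intron of Ptprj, chr2:90555892-90555963, plus strand: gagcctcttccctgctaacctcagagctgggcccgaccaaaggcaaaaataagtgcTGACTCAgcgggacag
FOXA member, intergenic, chr2:30773187-30773268, plus strand: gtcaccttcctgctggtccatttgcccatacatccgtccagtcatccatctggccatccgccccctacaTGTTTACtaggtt
CEBP member, in an intron of Cd47, chr16:49840201-49840400, plus strand: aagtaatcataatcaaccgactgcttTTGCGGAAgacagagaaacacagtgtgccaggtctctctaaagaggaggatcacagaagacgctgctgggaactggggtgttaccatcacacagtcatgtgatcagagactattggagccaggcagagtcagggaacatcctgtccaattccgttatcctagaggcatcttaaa
TEAD member, in an intron of St6galnac3, chr3:153690081-153690280, plus strand: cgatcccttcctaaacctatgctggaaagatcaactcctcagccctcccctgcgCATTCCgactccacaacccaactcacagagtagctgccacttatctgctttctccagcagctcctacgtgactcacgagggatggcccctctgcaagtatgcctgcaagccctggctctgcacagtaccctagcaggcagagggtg
CTCF member, intergenic, chr3:96497461-96497660, plus strand: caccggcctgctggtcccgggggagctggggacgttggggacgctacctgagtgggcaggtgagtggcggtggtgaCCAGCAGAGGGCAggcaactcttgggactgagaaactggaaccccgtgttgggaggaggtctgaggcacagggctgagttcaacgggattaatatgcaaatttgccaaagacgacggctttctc
Member of the run beside Hmgb2, chr8:57505531-57505730, plus strand: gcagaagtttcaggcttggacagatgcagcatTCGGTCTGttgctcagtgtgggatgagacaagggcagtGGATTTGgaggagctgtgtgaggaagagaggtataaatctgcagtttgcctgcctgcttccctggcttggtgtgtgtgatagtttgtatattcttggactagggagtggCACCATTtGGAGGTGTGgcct

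Members had low peak values. The value of a peak, a signal whose normalization is not given, was a whole multiple of 0.00604 in replicate 2 and of 0.0127 in replicate 1, within 0.05 of such a step, so values were also read as counts. The median member had a value of 0.350 (quartiles 0.217 and 0.519), or 58 counts (quartiles 36 and 86). Shared distal regions had a median of 0.911 in replicate 2, or 151 counts. Distal regions of replicate 1 alone had a median of 0.481 in replicate 1, or 38 counts, so their value was higher and their count lower than those of members. Were the values in CPM, a step would be the worth of 1 tag, and the smaller step of replicate 2 would make it the deeper library. A region of low value had more counts behind it in replicate 2, and the part of this difference in the number of members was not tested.

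Members were also narrow, with a tail of wide regions. Their median width was 134 bp (quartiles 84 and 209), against 152 bp in regions of replicate 1 alone and 200 bp in shared regions. Regions over 500 bp numbered 480 among members (2.78%), 44 among those of replicate 1 alone (0.190%) and 1072 among shared regions (4.15%). The widest member spanned 2891 bp, and members covered 2.94 Mb in all.

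At the limits of the rule the values ran on without a step. The 308 members in the first 100 bp beyond 1 kb from a start had a median value of 0.435, and the 318 regions of replicate 2 alone in the last 100 bp before that limit had 0.444. The 105 members within 10 bp of a replicate 1 peak had a median of 0.483. The 51 shared distal regions whose peaks, 1 of each replicate, overlapped by 1 to 10 bp had 0.459 in replicate 2.

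The highest member lay on chromosome 19 at 5803081 to 5803420, 409 bp from a start of Malat1, a long non-coding RNA gene of the nucleus. Its value was 5.12, from 849 counts (95% Poisson interval of the value 4.79 to 5.48). It was 140 bp from a replicate 1 peak, and stretches with a false discovery rate (FDR) under 0.05 in replicate 1 covered all of its 340 bases. The next was on chromosome 7 at 127254381 to 127254640, in an exon of the zinc finger gene Zfp771, with a value of 4.89 (4.56 to 5.24). The third, on chromosome 1 at 171044621 to 171044840, had a value of 3.22 (2.95 to 3.50) and lay 144 bp from a tRNA gene. The fourth, on chromosome 3 at 153690041 to 153690320 in an intron of the sialyltransferase gene St6galnac3, had 2.85 (2.60 to 3.12). It lay 1340 bp from a replicate 1 peak, had no such stretch of replicate 1 and is shown above as the TEAD member. The last of these 5, on chromosome 11 at 61408181 to 61408480, had 2.41 (2.18 to 2.66) and lay 193 bp from a tRNA gene. Thus 4 of the 5 highest lay within 140 bp of a replicate 1 peak and were covered from end to end by FDR stretches of replicate 1.

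The FDR file of replicate 1, made from the same alignment as its peaks, gives the stretches of bases whose FDR in that library is under 0.05. Such a stretch overlapped 1248 members (7.22%, 95% Wilson interval 6.84 to 7.62). Windows of the same width 2 kb upstream and downstream held such a stretch in 6.94% and 7.45%. Nothing is read from the likeness of these shares, since members were selected for having no replicate 1 peak and the windows were not. Under an FDR of 0.01 the number of members was 531 (3.07%). With the shorter peak list of both libraries 32.8% of members had a stretch under 0.05. In the 1248 members the stretches covered a median of 36 bases, and 277 members were covered wholly. Of the members shown as sequences, the highest and the CEBP member were covered wholly and the CTCF member over 187 bases. The others shown had no such stretch. In the FDR file of replicate 2, 57.3% of members had a stretch under 0.01, against 88.5% of shared distal regions. Of distal regions of replicate 1 alone, 71.9% had a stretch under 0.01 in their own library. A replicate 2 stretch under 0.05 overlapped 6.32% of these regions of replicate 1 alone.

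Replicate 1 stretches were frequent in members next to a replicate 1 peak. Members with a stretch had a median distance of 220 bp to such a peak, and members without had 5540 bp. The share with a stretch was 63.9% of the 399 members at most 50 bp from a replicate 1 peak, 32.8% of 1069 at 51 to 200 bp and 7.07% of 3041 beyond that up to 1 kb. It was 2.99% of 6081 members at over 1 to 10 kb, 4.35% of 4963 at over 10 to 100 kb and 1.68% of 1730 farther away. Members with a stretch also had higher values in replicate 2, with a median of 0.561 against 0.332. In 5 groups of about equal size, from low to high value, the share was 0.347%, 2.20%, 6.16%, 9.52% and 17.9%. Distance and value moved together, since members over 100 kb from a replicate 1 peak had a median value of 0.199 and those within 50 bp 0.513, and their separate parts were not tested.

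Footprints of replicate 2, listed by the authors at a threshold of 0.01, overlapped 10085 members (58.4%, 57.6 to 59.1). The members held 19398 footprints in all, 6.61 per kb with up to 17 in 1 member, and 8 bp was their median width. Among distal regions of replicate 1 alone 42.7% had a footprint of replicate 1, at 4.50 per kb. Among shared distal regions 93.9% had a footprint of replicate 2, at 11.4 per kb. Footprints followed the value: over the same 5 groups the share was 24.2%, 40.5%, 65.2%, 77.3% and 84.6%. In bands of value common to both classes the shares of members were 39.6%, 64.8%, 77.0% and 84.5% from the second band upward. Those of shared regions were 50.8%, 73.0%, 88.9% and 97.2%. Per kb, members had 3.71, 7.32, 9.01 and 9.58 footprints in these bands, and shared regions 3.57, 5.56, 7.91 and 12.3. The density was thus higher in members except in the highest band. That band began at 0.561, ended at 5.12 in members and took in shared regions of somewhat higher value. It held 19836 of the 25847 shared regions and 3518 members, and values within it were not matched. Members were narrower than shared regions in each of these bands, with medians of 118 against 184 bp in the second and 183 against 203 bp in the highest, and the part of width was not tested. A footprint of replicate 1 overlapped 48 members, and each of them also had an FDR stretch of replicate 1.

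**Figure D1:**
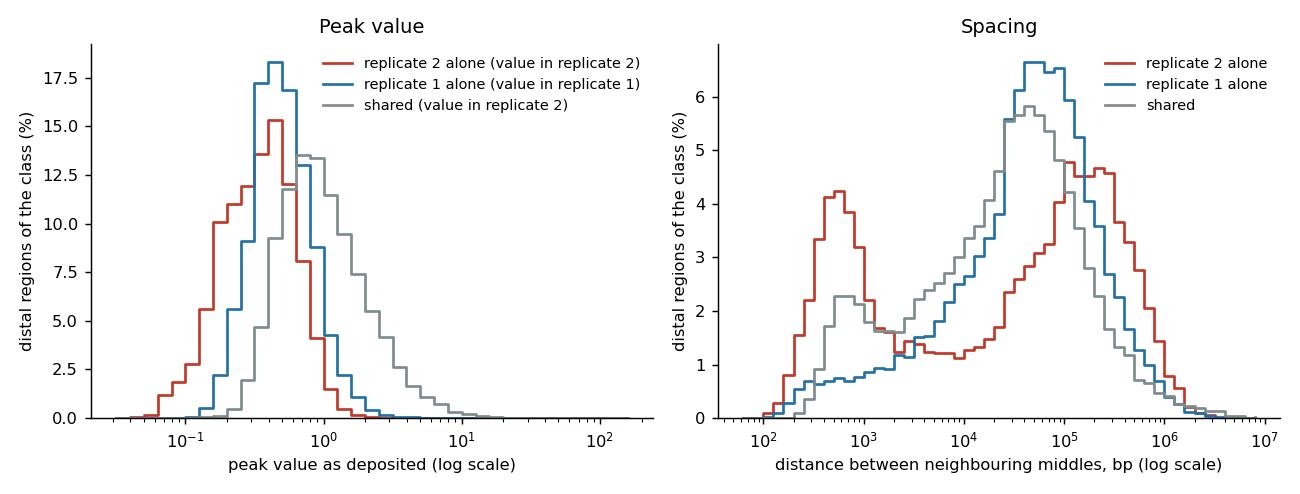
Left, the share of distal regions (%) by peak value on a log axis; right, by the distance between neighbouring middles in bp on a log axis, for regions of replicate 2 alone (red), of replicate 1 alone (blue) and shared (grey). Members lie at lower values, with a median of 0.350 against 0.911 for shared regions. Their spacing has a separate group of short distances, with 23.6% under 1 kb, and shared regions have a smaller one, with 9.75%.

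Members came in 2 arrangements, far apart or crowded together. The distance between neighbouring middles had quartiles of 1150, 43734 and 191879 bp. It was under 5 kb for 34.5% of neighbouring members, 13.3% of neighbouring regions of replicate 1 alone and 22.9% of neighbouring shared regions. Under 1 kb the shares were 23.6%, 5.18% and 9.75%. Members of the shorter peak list of replicate 2, set against the longer list of replicate 1, were closer together, with a median distance of 2766.5 bp. Most members (9312, or 53.9%) had no other member within 5 kb. At the other end, 2519 members (14.6%) stood in 150 runs of 10 or more, with less than 5 kb between neighbours. Regions of replicate 1 alone formed 2 such runs with 21 regions, and shared regions 12 with 141.

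A run of 10 or more members spanned a median of 12104.5 bp (4487 to 35900), with a median spacing of 597.5 bp. FDR stretches of replicate 2 covered a median of 55.5% of the span, and stretches of replicate 1 covered 2.23%. Shared regions lay in 91 of the 150 runs, and 55 runs held no peak of replicate 1 at all. Crowding went with low, wide regions. Median values were 0.368 in members alone, 0.423 in runs of 2 to 4, 0.296 in runs of 5 to 9, 0.211 in runs of 10 to 19 and 0.163 in runs of 20 or more. Over the same steps the median width was 117, 145, 184, 200 and 240 bp. The share with a footprint of replicate 2 was 60.1%, 64.2%, 55.1%, 46.6% and 42.4%, and the share with a replicate 1 stretch 9.57%, 7.18%, 3.12%, 1.46% and 0.648%. The choice of 10 members as the limit for a run was made with the data in view.

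**Figure D2:**
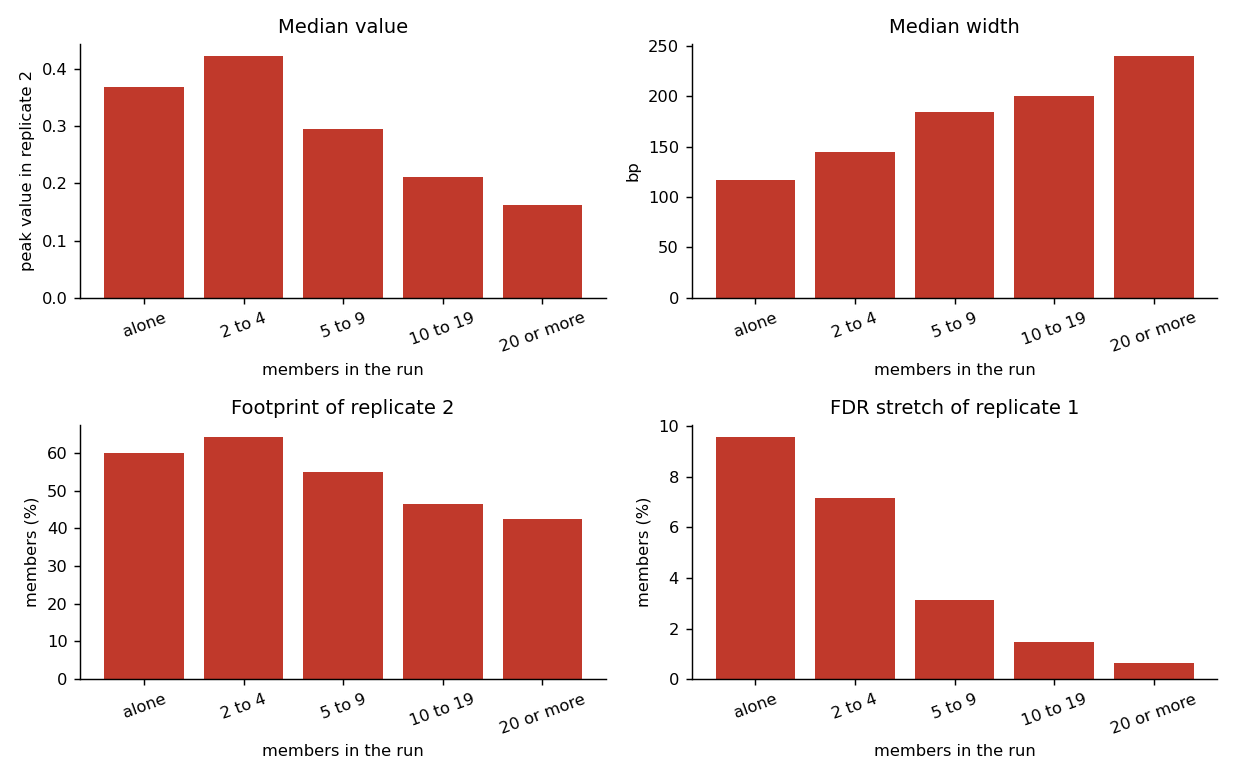
Members by the number of members in their run: median peak value in replicate 2, median width (bp), and the share (%) with a footprint of replicate 2 and with an FDR stretch of replicate 1. From members alone to runs of 20 or more the median value goes from 0.368 to 0.163 and the width from 117 to 240 bp.

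The run with the most members, on chromosome 17 at 3005961 to 3036460, had 54 members with values from 0.0724 to 0.254. It held no peak and no FDR stretch of replicate 1, while FDR stretches of replicate 2 covered 77.6% of it. It begins 5960 bp after the first sequenced base of the chromosome, where the assembly follows a gap that stands for the centromere, and 53.4% of its members' bases were soft-masked as repeats, against 21.1% over all members. Its nearest coding start was that of Scaf8, which encodes a protein that binds RNA polymerase II. In all, 5 of the 150 runs began within 100 kb of the first sequenced base of a chromosome.

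The run on chromosome 8 at 57478768 to 57509788 had 41 members with values from 0.0724 to 0.471 and a median of 0.127. It lay around Sap30, a subunit of the SIN3 histone deacetylase complex, and Hmgb2, a chromatin protein of dividing cells. Among its members stood 4 shared regions, of which the highest reached 11.7 in replicate 2 and 15.8 in replicate 1. The run on chromosome 7 at 66224601 to 66260500, in the kinase gene Lrrk1, had 39 members with values from 0.103 to 0.392. Its 3 shared regions reached 4.002 in replicate 2 and 4.78 in replicate 1, so the highest peaks of this stretch were listed in both libraries and the low peaks between them in replicate 2 alone.

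**Figure D3:**
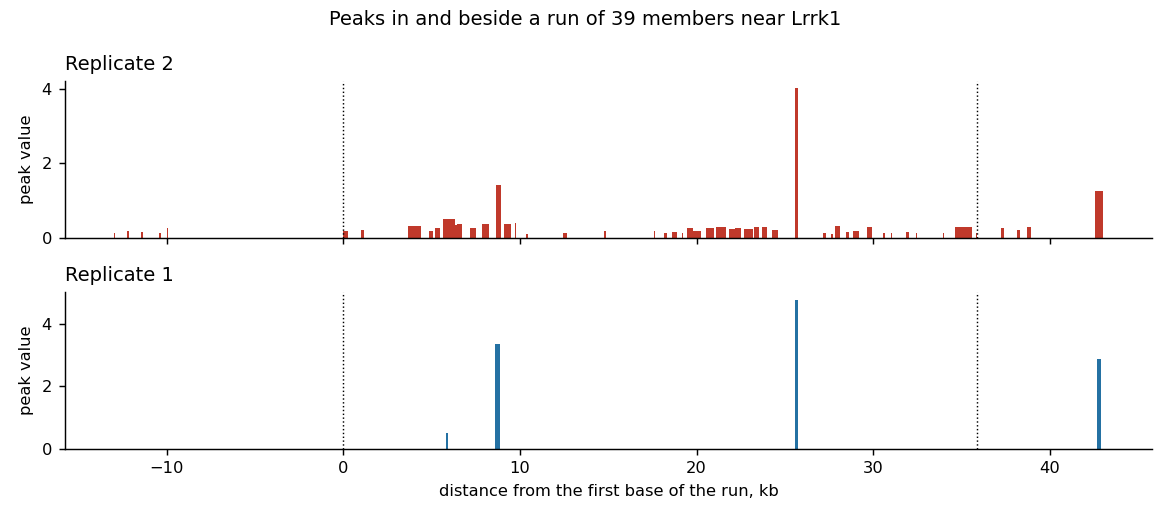
Peaks of replicate 2 (top) and replicate 1 (bottom) over the run of 39 members near Lrrk1 and 15 kb on either side; the horizontal axis is the distance from the first base of the run in kb, bars show each peak's value and extent, and dotted lines mark the ends of the run. Replicate 2 has 54 peaks in view and replicate 1 has 4, of which the highest stands at the same place in both, at 4.002 and 4.78.

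Runs put many members near few genes. Of 21911 protein-coding genes, 6706 had a start nearest to at least 1 member, and the 218 nearest to 10 or more took 3688 members (21.3%). Most members were nearest to Lrrk1, with 64, beside 14 shared regions and 2 of replicate 1 alone. Next were the vomeronasal receptor gene Vmn1r2 with 56, Scaf8 with 54, the centrosome gene Ssx2ip with 52, BC107364 with 45 and the nuclear receptor gene Hnf4g with 40. The members of Vmn1r2, Scaf8 and Hnf4g stood largely in runs at the first sequenced bases of chromosomes 4, 17 and 3, and 15, 0 and 0 members lay within 50 kb of their starts.

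Other genes had their members close by. Zfp36l2, which encodes an RNA-binding protein that promotes mRNA decay and is needed by blood stem cells, was nearest to 39 members, with a median value of 0.320 and 18 with a footprint of replicate 2. It was also nearest to 20 shared regions. The mucin gene Muc3 had 36, the homeobox gene Lbx1 34, the sialyltransferase gene St3gal4 34, the interleukin 4 receptor gene Il4ra 33 and the collagen VI gene Col6a1 32. The median value of these members ran from 0.112 for Muc3 to 0.278 for St3gal4. Regions of replicate 1 alone nearest to the same 5 genes numbered 0 to 2, and shared regions 2 to 4.

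Inside gene bodies the count was highest for Gm20388, with 112, and Fgfr2, a fibroblast growth factor receptor gene, had 39. Both are annotated over megabases and span other genes, and no member and 3 members respectively were nearest to their own starts. Among genes of ordinary extent Lrrk1 held 54, the endosomal tethering gene Vps33a 32, St3gal4 30, Tmcc2 29, the zinc finger gene Zfp652 28, the kinase gene Camk2b 27, the lens filament gene Bfsp2 25 and the actin-binding gene Coro2b 25. The 29 members nearest to Tmcc2 had the highest median value among the genes named here by their number of members, 0.477 (0.272 to 1.53), and 22 of them had a footprint of replicate 2. Those nearest to Bfsp2 ran from 0.0845 to 0.362 with a median of 0.127.

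Genes of the red cell programme had many members nearby. Over all protein-coding genes the mean number of members within 50 kb of a start was 1.38 and the median 0, and 10560 genes (48.2%) had at least 1. The 16 erythroid transcription factor genes had a mean of 6.50 and a median of 4, and 15 had at least 1. Among them were Zfpm1, the GATA1 cofactor FOG1, with 25, Mafk, a partner of NFE2, with 19, and Bcl11a, a repressor of fetal globin genes, with 12. The 20 genes of the red cell membrane and receptors had a mean of 5.85 and a median of 3.5, with 28 members at the water channel gene Aqp1, 21 at the glucose transporter gene Slc2a1 and 12 at Slc4a1, which encodes band 3. The 9 globin genes had a mean of 5 and a median of 8, but they lie in clusters, so that the 8 members each of Hba-a1, Hba-a2 and Hba-x were counted in windows that overlap. Heme and iron genes had a mean of 2.67, with 13 at Alad, whose enzyme makes a precursor of heme, and 9 at Slc11a2, which encodes an iron transporter. Their median was 1, as in hepatoblast and endothelial genes. Their mean was 1.93 times that of all genes within 50 kb and 1.24 times within 100 kb.

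These genes also lie among many shared regions. Erythroid transcription factor genes had a mean of 7.94 shared distal regions within 50 kb, against 2.32 over all protein-coding genes. A shared distal region within 50 kb was found for all 16 of these genes, all 9 globin genes and 17 of 27 hepatoblast genes, against 15562 of 21911 protein-coding genes (71%), so in this count the erythroid genes stood above all genes and the hepatoblast genes did not. Zfpm1 had 21 shared regions beside its 25 members and 3 regions of replicate 1 alone. Mafk had 6, 19 and 1 in the same order, and Slc4a1 19, 12 and 6. As a share of all distal regions within 50 kb, members made up 37.5% at erythroid transcription factor genes, 36.3% at membrane and receptor genes, 30% at heme and iron genes and 24.3% at globin genes, against 26.2% over all genes. Without members in runs of 10 or more, the mean of the erythroid transcription factor genes was 4.09 times that over all genes, against 4.71 times with them, and that of membrane and receptor genes 3.54 times against 4.24.

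Lists of other liver cell types had means from 0.684 to 1.58, against 1.38 over all genes. Hepatoblast genes had a mean of 1.37 and a median of 1, with 7 members at the liver factor gene Foxa3, 5 at Prox1 and 4 at Apoe. Adult hepatocyte genes had 1.52 and 0, with 20 at Hpd, an enzyme of tyrosine breakdown. Endothelial genes had 1.58 and 1, stellate and mesenchymal genes 1.17 and 1, macrophage genes 0.900 and 0, and megakaryocyte genes 0.684 and 0. The megakaryocyte value turned with the window, from 0.496 times the mean of all genes within 50 kb to 1.26 times within 100 kb. As a share of all distal regions nearby, members made up 32.7% at hepatoblast genes, 29.3% at stellate and mesenchymal genes, 25.9% at adult hepatocyte genes, 21.7% at endothelial genes, 16.2% at macrophage genes and 12.3% at megakaryocyte genes, against 26.2% over all genes. A member lay within 50 kb of 9 of 20 macrophage and 8 of 19 megakaryocyte genes, shares near the 48.2% of all genes. A region of replicate 1 alone did so for 20 and 17 of them, against 14601 of 21911 genes (66.6%). Most other lists also stood above that share, such as 12 of 12 germ cell, 15 of 16 muscle and 17 of 19 lymphoid genes. Below it were 9 of 20 neural, 6 of 12 epithelial, 17 of 27 hepatoblast and 15 of 23 adult hepatocyte genes.

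Some lists owe their mean to 1 or a few genes. The erythroid transcription factor, membrane and heme lists, with means of 6.50, 5.85 and 2.67 over medians of 4, 3.5 and 1, also rest in part on the genes named. So does the mean of adult hepatocyte genes, with 20 members at Hpd. Stem and progenitor genes had a mean of 3.33 and a median of 1, with 26 members at the homeobox gene Hoxa9, 7 at Mecom and 6 at Meis1, and members made up 40.7% of the distal regions nearby. Granulocyte and mast cell genes had 2.5 and 1, with 17 at the eosinophil granule gene Prg2, 13 at the lactoferrin gene Ltf and 7 at the myeloperoxidase gene Mpo. Without members in runs of 10 or more these 2 means were 1.57 and 0.858 times that over all genes, against 2.41 and 1.81 times with them. Housekeeping genes had a mean of 2.00 and a median of 1. The remaining lists, of lymphoid, neural, muscle, gut and pancreas, epithelial and germ cell genes, had means from 0.625 to 1.83 and medians from 0 to 1.5.

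**Figure D4:**
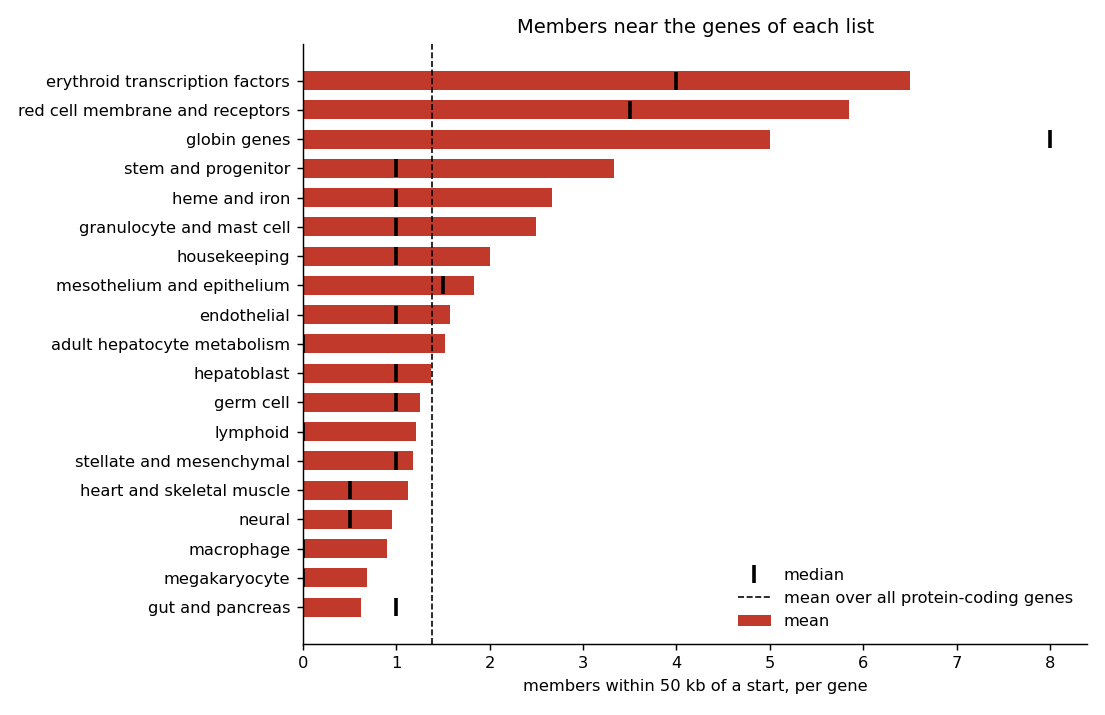
Members within 50 kb of a start per gene for 19 gene lists (bars, mean; black marks, median; dashed line, the mean of 1.38 over all protein-coding genes). Erythroid transcription factor genes (6.50), red cell membrane and receptor genes (5.85) and globin genes (5) have the highest means, and megakaryocyte (0.684) and gut and pancreas genes (0.625) the lowest in this window; within 100 kb the megakaryocyte mean was 1.26 times that of all genes.

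Members were more often exonic than the other distal regions. Exons of protein-coding genes held 11.4% of members (10.9 to 11.9), 5.03% of regions of replicate 1 alone and 8.22% of shared regions. Introns held 35.7%, 47.6% and 40.3%, and 53.0%, 47.4% and 51.5% were intergenic. The median distance to a coding start was 16632 bp for members, 19515 bp for regions of replicate 1 alone and 13717 bp for shared regions. Members over 100 kb from a start made up 19.2%, against 16.4% and 8.43%. A start of any gene, non-coding genes included, lay within 1 kb of 1238 members (7.16%). Along the values, the exonic share went from 6.36% in the lowest of the 5 groups to 13.7% in the fourth and 12.8% in the highest, and the intergenic share from 62.8% to 44.9%.

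Members were rich in G and C. The 200 bases around their middles had a mean GC content of 54.2% (SD 6.11), against 45.7% in windows 2 kb to either side. Regions of replicate 1 alone had 47.9% against 44.2%, and shared regions 52.4% against 46.4%. The mean number of CpG dinucleotides in the same windows was 4.56 in members and 2.59 in their flanks. In runs of 20 or more the GC content was 50.99% and that of the flanks 48.4%, against 54.8% and 43.7% for members alone. Repeats were more frequent too: a 31-base word from the member occurred elsewhere in the genome for 9.19% of members, against 3.81% and 3.18% in the other classes.

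The motifs of GATA, RUNX, PU.1 and AP-1 factors were in a smaller share of members than of either other class of distal regions. Each motif was searched by its letters on both strands in 200 bases around the middle. AGATAA, the site bound by GATA factors, was in 6.31% of members (5.96 to 6.68), 24.9% of regions of replicate 1 alone, 15.9% of shared regions and 16.5% of all distal regions. It was also less frequent in members than in their own flanks, where 10.7% held it. The flanks had a lower GC content, 45.7% against 54.2%, and were not matched to members by GC. Members under 45% GC held AGATAA in 10.5% and those at 45 to 50% in 9.83%, near the share of the flanks. TGTGGTT, of RUNX factors, was in 3.96%, 10.2% and 5.36% in the order of members, replicate 1 alone and shared, and in 4.58% of the members' flanks. GAGGAAGT, of PU.1, a factor of myeloid cells, was in 1.46%, 5.84% and 2.05%. TGANTCA, of AP-1, which also occurs inside the longer site of NFE2, was in 5.32%, 9.72% and 7.30%. CCACACCC, of KLF1, was also least frequent in members, in 2.997%, 4.52% and 4.36%, but was in 1.78% of their flanks. Not all motifs of blood factors followed this order. CAGATG, the E-box of TAL1, was in 17.9%, 19.2% and 17.3%, and in 14.6% of the members' flanks. CCGGAAG, of ETS factors, was in 2.08%, 1.62% and 2.21%.

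The motif of CTCF, the insulator protein, was searched by its consensus. It was in 1.43% of members, 3.83% of regions of replicate 1 alone and 14.6% of shared regions, against 0.150% of the members' flanks. Of the 248 members that held it, 224 had no other member within 5 kb, and in runs of 10 or more it was in 1 of 2519. AGATAA, by contrast, was in 6.38% of members alone and 5.99% of those in runs of 10 or more.

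Further motifs did not follow the order of GATA either. GGGCGG, the GC box of SP and KLF factors, was in 11.02% of members, 5.94% of regions of replicate 1 alone and 13.6% of shared regions, against 4.47% of the members' flanks. GGAATG, of TEAD factors, was in 11.5%, 8.74% and 9.57%, and in 10.1% of flanks. TTGGCA, a part of the NFI site, was in 11.9%, 10.4% and 10.2%, and in 9.46% of flanks. AAGATGGCG, of YY1, was rare but in 0.694%, 0.246% and 0.391%. TGTTTAC, of the liver factors FOXA, was in 2.52%, 2.74% and 2.38%, and 2.79% of flanks. Of 24 motifs, members had the lowest share of the 3 classes for 14 and the highest for 4.

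Base composition moved with the motifs, since AGATAA is rich in A and T. In bands of GC content chosen after the data were seen, it was in 9.83% of members at 45 to 50% GC, against 28.5% of regions of replicate 1 alone and 19.6% of shared regions. At 50 to 55% the shares were 7.002%, 18.8% and 18.3%, and at 55 to 60% they were 4.79%, 13.7% and 12.3%. The share in members was thus the lowest of the 3 classes in each of these bands. Within a band the classes were not matched further by GC, and the part of base composition was not tested. CTCF at 50 to 55% was in 1.48%, 2.28% and 14.8%. The RUNX motif was more frequent in members than in shared regions under 45% GC, at 6.93% against 6.19%, and less frequent in the higher bands. The PU.1 motif was alike in members and shared regions under 45% (0.899% and 0.902%) and at 45 to 50% (1.75% and 1.77%). It was less frequent in members above that.

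Motifs inside footprints followed the same order for GATA. With 5 bp added on each side, 80 of the members' 19398 footprints held AGATAA (0.412%), against 6.15% of the footprints of replicate 1 in its own regions and 1.36% of those of replicate 2 in shared regions. The CTCF motif was in 0.722%, 1.18% and 4.75%, and GGGCGG in 2.18%, 0.768% and 4.01%. Footprints in shared regions had a median width of 10 bp, against 8 bp in each of the other classes. The bases searched were thus more in shared regions, and the part of width was not tested. Footprints of the 2 libraries were called separately. The depth of either library is known only if values are in CPM, and its part in these shares was not tested.

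**Figure D5:**
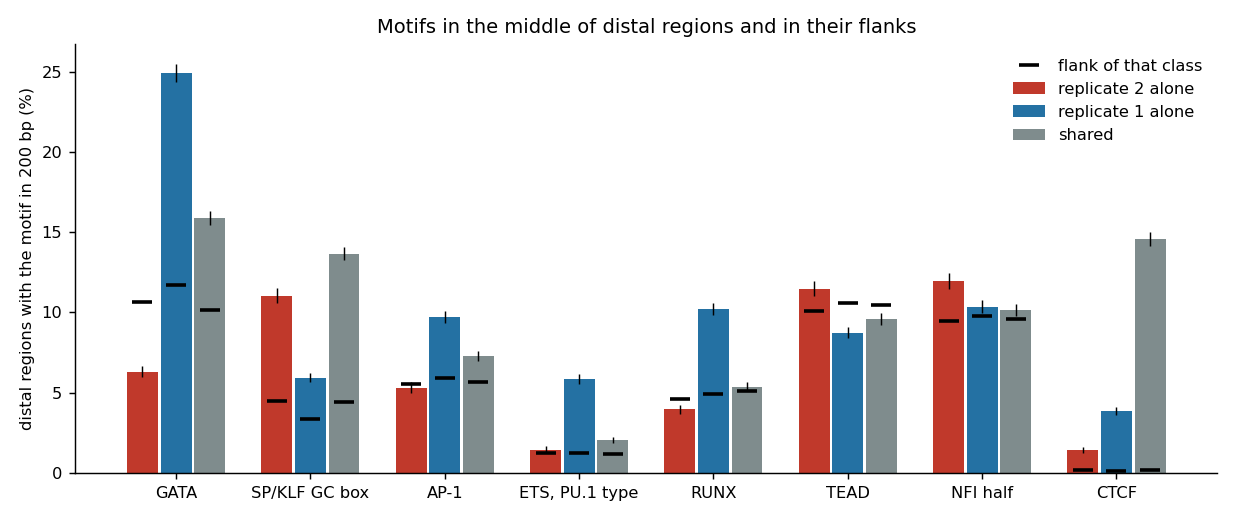
Share of distal regions (%) with each motif in the 200 bases around the middle, for regions of replicate 2 alone (red), replicate 1 alone (blue) and shared (grey), with 95% Wilson intervals; black dashes give the share in windows 2 kb to either side. AGATAA of GATA factors is in 6.31% of members and in 24.9% and 15.9% of the other classes. The members' flanks, which have a lower mean GC content and are not matched by it, hold it in 10.7%.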

How the data were processed

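Deposited peak, footprint and FDR lists of 2 DNase-seq libraries of embryonic liver were used, 1 per biological replicate, on mm10, per the labels. Peak values are a signal deposited by the authors with no stated normalization; the aligner and callers were not given in the sources used here. Per the deposited notes, the authors derived each list from the alignment of its own library. The deposited FDR and footprint lists carry p-values or FDR values, under 0.05 and at 0.01. The longer of 2 peak lists per library was used.

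Peaks were merged by 1 bp and classed with GENCODE M21. Values were divided by the step between them to recover counts. Medians and shares were computed with Python 3.11.15, numpy 2.4.6, pandas 2.3.3, scipy 1.17.1 and pysam 0.24.0. Sequence, soft-masking and repeated 31-base words came from GRCm38.p6. Wilson and Poisson intervals (95%) cover counting error only, and neighbouring regions are not independent. Interval and motif searches were tested on simulated data.

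Members, the 19 gene lists (342 entries, of which Ighm had no match) and the 24 motifs were chosen with earlier results of these data known. Named were the 12 genes nearest to most members, the 10 holding most, the 3 genes of a list with most members within 50 kb, the 5 highest members, the 3 runs of most members and members at the limits; 1 gene that this rule names is not reported here. Runs of 10 or more, GC bands and value bands were chosen after the data were seen. Alternatives were the shorter peak lists, other distances, repeat and value filters, windows and FDR limits.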

Additional observations from a re-analysis of the deposited data

How the results depend on the processing

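With the shorter peak list of both replicates there were 6920 members, with a median value of 0.495, a median spacing of 13456 bp, 48.7% intergenic, 66.5% with a footprint of replicate 2 and 32.8% with a stretch of replicate 1, whose own shorter list leaves more of its stretches outside a peak. With the shorter list of replicate 2 against the longer list of replicate 1 these were 5151 members, a spacing of 2766.5 bp, 47.2% intergenic and 9.77% with a stretch. With no replicate 1 peak within 500 bp the value was 0.308, the spacing 57400.5 bp, the share with a footprint 57.0% and that with a stretch 3.42%. At 2.5 kb from a start they were a value of 0.326, 60323 bp, 58.7% intergenic and 57.0% with a footprint. With starts of all genes the spacing was 47321 bp and 51.6% were intergenic. Under 50% soft-masked bases gave a value of 0.374, 49.3% intergenic, 61.3% with a footprint and 7.82% with a stretch. Members at or over the median value numbered 8665, with a spacing of 64120 bp, 46.0% intergenic, 78.0% with a footprint and 12.4% with a stretch. Without members in runs of 10 or more, added after seeing the data, the value was 0.374, the spacing 75350 bp, and 53.9%, 60.7% and 8.26% were intergenic, with a footprint and with a stretch. Whole footprints lay inside 57.3% of members, stretches under an FDR of 0.01 in 3.07%, and stretches over at least 20 bp in 4.84%. The cause of these changes was not tested.

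The number of members stayed within 1.5 times under 5 of 8 alternatives. Of 57 gene list values (3 alternatives for each of 19 lists) 45 stayed within 1.5 times of the ratio to all genes. Among the others, granulocyte and mast cell genes had 1.81 times the mean of all genes within 50 kb and 0.333 times within 20 kb, megakaryocyte genes 0.496 and, within 100 kb, 1.26, and adult hepatocyte genes 1.10 and, without runs, 0.711. The 7 motif ratios of members to shared regions kept within 1.5 times in windows of 400 bp. Each replicate is 1 library, so leaving out a replicate gives no members. No paired analysis was possible because both libraries belong to 1 group.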

Other observations

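Members were spread over all 21 chromosomes used. They made up between 22.4% of distal regions, on chromosome 10, and 31.3%, on chromosome X, apart from 54.0% on chromosome Y, where the numbers were small (34 members, 15 regions of replicate 1 alone and 14 shared). On chromosome X there were 563 members (3.26% of members), against 2.81% of regions of replicate 1 alone and 2.27% of shared regions. Per Mb, members were densest on chromosome 11, with 9.40, which also had the most shared distal regions per Mb, 16.9.

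A tRNA gene lay within 500 bp of 39 members (0.226%), of 281 shared distal regions (1.09%) and of 23 regions of replicate 1 alone (0.0995%). The 1730 members over 100 kb from a replicate 1 peak were short (median 107 bp) and low (median 0.199), 81.8% of them were intergenic, 44.6% of their bases were soft-masked and 26.5% held a repeated 31-base word. Their GC content was 54.8% against 39.5% in their flanks. The lowest value, 0.0423 from 7 counts, was that of a member of 63 bp on chromosome 15 at 82358243 to 82358305, 3921 bp from the start of Ndufa6, a subunit of respiratory complex I.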
